A study of Mus musculus with 15 samples.

Results

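The genes examined here are those that the deposited table places on mouse chromosome 6 and whose level, averaged over 15 T cell leukemia lines, was at least 5 CPM, which are reads scaled to the total of their library. They number 454, of 605 chromosome 6 genes listed and of 12545 genes in the table. *Acrbp* was the last gene inside this limit, at a mean of 5.35 CPM, and *Abcg2* the first outside it, at 4.89 CPM. The chromosome and its 3 lines of interest, SKO163.5, DKO548 and DKOTu3, were selected on these same expression values. Their shift is therefore given as a description, and p values are given only for the comparison of genotypes, which the choice did not use.

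RNA was sequenced from 15 lines grown from the thymus of leukemic FVB/NJ mice, with 1 library per line. The 7 *E2a*-/- lines (named SKO) lack *E2a*, which encodes the E proteins E12 and E47, and the 8 DKO lines are *E2a*-/- with *LefF/F* alleles and *LckCre*+, so that every line carries the *E2a* deletion. Cre is driven in T lineage cells by the Lck promoter and removes a floxed part of *Lef1*, and all the lines had been kept in culture without further treatment. The labels do not say whether each line came from a separate mouse, so a p value measures the spread between these lines.

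Mouse chromosome 6 carries several loci that matter to lymphocytes. The T cell receptor beta segments (*Trb*), the GIMAP family of GTPases, *Cd8a*, the immunoglobulin kappa segments and the natural killer gene complex all lie on it. It also carries many genes of replication, chromatin and translation that a dividing cell uses all the time. An autosome whose genes are shifted together in a line shows as a small change of the same sign in many otherwise unrelated genes, and RNA levels alone do not count chromosomes. Chromosome number and DNA copy number were not analysed here.

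Members differed in the kind of promoter they have, and in the 3 lines their shifts were less spread among those with a CG-rich one. Of the 454 genes, 364 (80.2%) matched a RefSeq promoter of GRCm38.p6, and 265 of these (72.8%) held at least 15 CG dinucleotides in the 300 bases from 250 before to 50 after the start. Among all 27025 promoters of the same length, of genes at any level, the share was 35.2%. It was not computed for genes of at least 5 CPM on other chromosomes, so 72.8% is not shown to be particular to chromosome 6. CG reads the same on both strands, so each site was counted once. The 100 bases before the start are shown for 2 members of either kind, with CG in capitals. *Mat2a* and *Mcm2* were picked by mean level from the CG-rich members above the 12 other lines in each of the 3 lines. *Cd8a* and *Cacna1c* were picked as the CG-poor members of largest spread over the 12 other lines. They are examples chosen for these values and do not bear on how even the shift was. *Mat2a* (minus strand, window chr6:72439507-72439806), *Mcm2* (minus strand, chr6:88898731-88899030), *Cd8a* (plus strand, chr6:71373177-71373476) and *Cacna1c* (minus strand, chr6:119196360-119196659) read as follows, 5′ to 3′.
Mat2a: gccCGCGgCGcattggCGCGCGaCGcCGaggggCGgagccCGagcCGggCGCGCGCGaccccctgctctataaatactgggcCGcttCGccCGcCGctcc
Mcm2: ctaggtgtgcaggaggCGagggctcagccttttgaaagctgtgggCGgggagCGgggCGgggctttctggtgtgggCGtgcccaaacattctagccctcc
Cd8a: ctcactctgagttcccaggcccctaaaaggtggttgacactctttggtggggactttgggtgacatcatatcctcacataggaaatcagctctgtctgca
Cacna1c: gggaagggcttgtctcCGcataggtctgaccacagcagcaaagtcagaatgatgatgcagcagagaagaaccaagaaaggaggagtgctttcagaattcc
The windows of *Mat2a* and *Mcm2* held 34 and 16 CG, and those of *Cd8a* and *Cacna1c* 3 each. In SKO163.5, DKO548 and DKOTu3 the median shift of the CG-rich members was 0.29, 0.26 and 0.17, and that of the 99 CG-poor members 0.30, 0.18 and 0.13. The medians were close, but the middle 50% of the CG-poor members covered 0.83, 0.68 and 0.35 against 0.45, 0.39 and 0.30 for the CG-rich ones. These widths were not computed in the 12 other lines, so they are not shown to belong to the shift. Such a count of letters describes a promoter and says nothing of what binds there.

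Between 4847970 and 21681586 reads of a line fell on the genes in the table, and the 3 lines lay inside this range at 17377287 to 18998773. The members took 939011 to 1045202 reads in the 3 lines and 203509 to 909333 in the other 12. *Lef1*, the targeted gene, was at 103 to 210 CPM in DKO lines and reached 1558 CPM in *E2a*-/- lines, but the library labelled SKO132, also *E2a*-/-, was at 59.0 CPM, under each DKO line. Without it in the reference the shifts described below were 0.29, 0.22 and 0.16. Of the T lineage markers 14 of 14 were listed, and their summed level was 6011 to 6489 CPM in the 3 lines and 4456 to 8155 CPM in the 12 others. Of the B lineage and erythroid markers 0 of 6 and 0 of 6 were listed. The 2 of 7 myeloid markers listed, *Itgam* and *Lyz2*, summed to 10.7 to 14.0 CPM in the 3 lines and 5.48 to 12.7 CPM in the others. The 4 of 7 stromal and epithelial markers listed, *Pecam1*, *Krt18*, *Col1a2* and *Epcam*, summed to 57.4 to 275.0 CPM and 83.3 to 1029 CPM. The part of other cells in the shift was not tested.

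Chromosome 6 genes were raised together in SKO163.5, DKO548 and DKOTu3. For each gene the deviation of a line is its log2(CPM + 1) minus the median of that gene over the 15 lines, and the value of a chromosome is the median deviation of its genes. For chromosome 6 this median was 0.30 in SKO163.5, 0.23 in DKO548 and 0.16 in DKOTu3, which correspond to 1.23-fold, 1.17-fold and 1.12-fold. In the 12 other lines it lay between -0.11 and 0.0057 (SD 0.040, n = 12), so the lowest of the 3 lines lay above the highest of the others. In bulk RNA of a line, more RNA per cell and a larger share of cells with raised genes cannot be told apart. DKO and *E2a*-/- lines were both among the raised ones, and the 6 remaining lines of each genotype spanned -0.11 to 0 and -0.046 to 0.0057.

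The shift was carried by most members and not by a few. In SKO163.5, 351 of 454 members (77.3%) lay above their own median over lines, as did 315 (69.4%) in DKO548 and 328 (72.2%) in DKOTu3. In the 12 other lines the share was 30.8% to 50.9%. Genes of the other autosomes did not share it, with 41.4%, 43.5% and 48.5% of 8920 genes above their median in the same 3 lines. The members' middle 50% ran from 0.032 to 0.53 in SKO163.5, from -0.019 to 0.42 in DKO548 and from 0 to 0.33 in DKOTu3. Genes under the 5 CPM limit, 151 on this chromosome, had medians of 0.11, -0.087 and 0.10, so in DKO548 the rise was not seen among genes of low level.

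**Figure D1:**
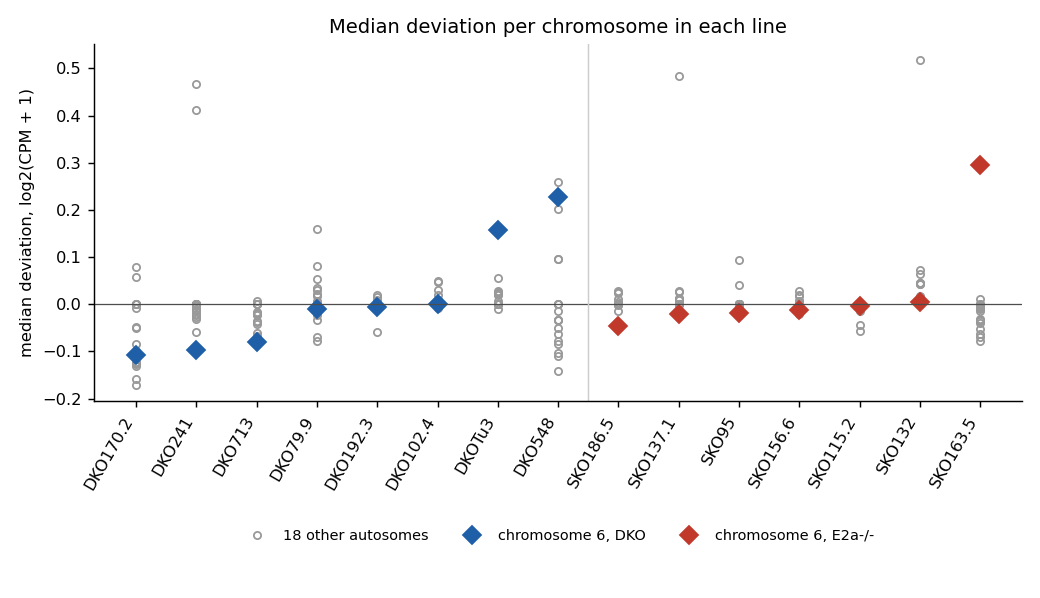
Median deviation, on the log2(CPM + 1) scale, of the genes of chromosome 6 (diamonds) and of each of the 18 other autosomes (open circles) in each of the 15 lines, DKO lines on the left and E2a-/- lines on the right, in rising order of the chromosome 6 value. Chromosome 6 stands at 0.16 in DKOTu3, 0.23 in DKO548 and 0.30 in SKO163.5 and at 0.0057 or less elsewhere.

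Among the 19 autosomes chromosome 6 had the highest median in SKO163.5, where the next was chromosome 8 at 0.011. It was also the highest in DKOTu3, where chromosome 18 followed at 0.055. In DKO548 it came after chromosome 1, at 0.26, and chromosome 14 followed at 0.20. The highest autosome of DKO548 is thus another one, and the lowest, chromosome 7, stood at -0.14 there. In the plot of chromosome medians SKO163.5 and DKOTu3 show 1 raised autosome, and DKO548 shows several on either side of 0.

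As a share of all CPM the members took 5.62% in SKO163.5, 5.40% in DKO548 and 4.999% in DKOTu3. The 12 other lines gave 4.18% to 4.54%, with a mean of 4.28% ± 0.109 (SD, n = 12). The ratio to the median of the 12 was 1.32, 1.27 and 1.17. This sum weights genes by their level and needs no deviation from a median, and it gave the same order of the 3 lines. Without the 10 members of highest mean level the ratio was 1.34, 1.25 and 1.18.

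Since each line was set against a median that the 3 lines helped to form, they share their reference, and the same was computed with references that have no line in common. SKO163.5 against the 6 other *E2a*-/- lines gave 0.33. DKO548 against DKO102.4, DKO170.2 and DKO192.3 gave 0.24. DKOTu3 against DKO241, DKO713 and DKO79.9 gave 0.27, which is 1.71 times its value over all lines. The direction was the same with each reference, and the size in DKOTu3 depended on the reference. In DKO548 the mean over members was 0.021 and the median without a level limit was 0.13, each less than the 0.23 given above by over 1.5 times.

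Compared gene by gene, the 3 lines had median differences of 0.063 to 0.12. Such a median measures the offset between lines and not how far single genes differ. SKO163.5 was above DKO548 in 256 of 454 members (56.4%), with a median difference of 0.063. Its median difference from DKOTu3 was 0.12, and 282 members (62.1%) were higher in SKO163.5. DKO548 was above DKOTu3 in 264 (58.1%), with a median of 0.067. On the other autosomes the same differences had the opposite sign, at -0.017, -0.059 and -0.045.

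To see whether the shift was whole or partial, the members were placed in 15 bins of 10 Mb by the start that the table lists, counted from 1 at the low end. A bin was called raised where its median deviation in the line was above that in each of the 12 other lines. Bins 2 and 7 hold under 10 members and were not counted. Of the 13 bins counted, 12 were raised in SKO163.5, 12 in DKO548 and 10 in DKOTu3, and 0 of 13 were lowered in each. In DKO548, 1 of 13 bins was lowered with references that share no line, where bins were compared with the 3 lines of its reference only. With bins of 5 Mb it was 1 of 19. All 3 lines were raised in 10 bins, which run from the third to the last, and in 13 of 15 bins all the medians were above 0. The raised bins that the lines share thus lie along most of the chromosome as it is covered by these genes. Bin 5 is the one counted bin in which all 3 lines stayed within the range of the others.

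**Figure D2:**
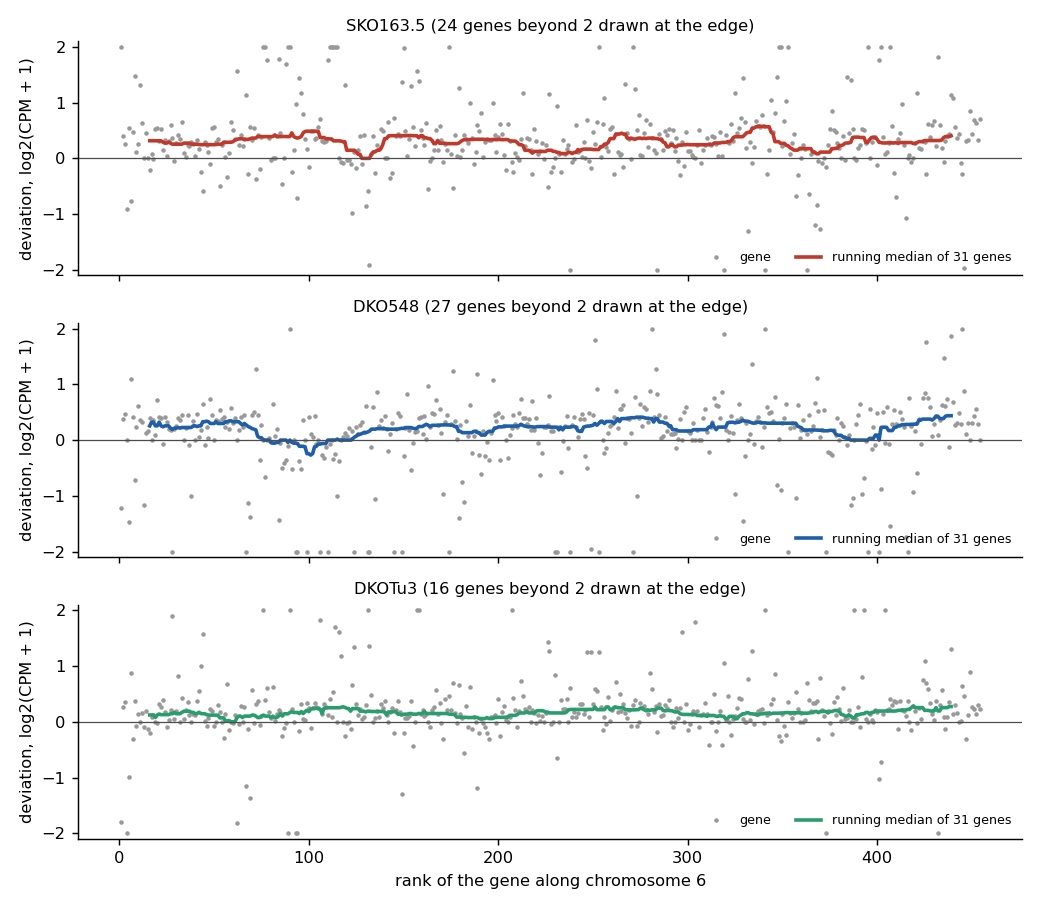
Deviation of each of the 454 genes from its median over the 15 lines, on the log2(CPM + 1) scale, against the rank of the gene along chromosome 6, in SKO163.5, DKO548 and DKOTu3, with the running median of 31 genes as a line. The running median lies above 0 over most of the chromosome in each line, and in DKO548 it falls below 0 near rank 100.

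Bin medians of SKO163.5 ran from 0.095 in bin 6 to 0.45 in bin 10. Those of DKO548 ran from -0.091 in bin 5 to 0.57 in bin 11, which has 10 members, all of them above 0 in that line. In DKOTu3 the range was 0, in bin 1, to 0.27, in bin 15. The last bin, of 31 members, was high in each, at 0.41, 0.44 and 0.27 against -0.30 to 0.10 in the 12 others. The order SKO163.5, DKO548, DKOTu3 that held for the whole chromosome was found in 6 of the 13 bins, so the size in a bin did not keep to it.

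**Figure D3:**
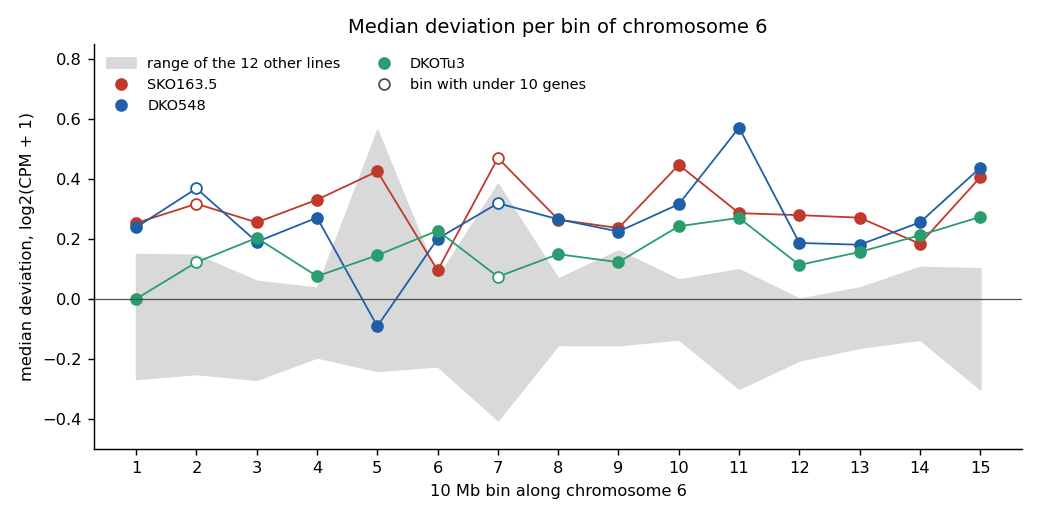
Median deviation, on the log2(CPM + 1) scale, in each 10 Mb bin of chromosome 6 for the 3 lines (points, open where the bin holds under 10 genes) and the range of the 12 other lines (grey). The points lie above the grey band in 10 of the 13 counted bins for all 3 lines, while in bin 5 the band reaches 0.56 and DKO548 falls to -0.091.

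Bin 5, from 40 to 50 Mb as listed, was the exception. It holds 40 members, among them the T cell receptor beta segments and the GIMAP genes. SKO163.5 stood at 0.43, DKOTu3 at 0.15 and DKO548 at -0.091, where 12 of 40 members were above 0. The 12 other lines spanned -0.24 to 0.56, the highest being SKO115.2, so none of the 3 lines was outside them. Without the 14 *Trb* and *Gimap* genes the remaining 26 had medians of 0.36, 0 and 0.20. The rise was thus missing in DKO548 also among the other genes of the bin, of which 11 of 26 were above 0. In DKOTu3 bins 1 and 9 were likewise within the range of the others, at 0 and 0.12.

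The chromosome was also split once in each line, at the place that leaves the least absolute deviation around the medians of the 2 segments, each of at least 30 members. In SKO163.5 the split fell between *Plekha5* and *Aebp2*, with 0.28 before it and 0.42 over the last 30 members, the fewest allowed. In DKO548 it fell between *Dera* and *Plekha5*, with 0.21 before and 0.44 over the last 31. In DKOTu3 it fell between *Magohb* and *Ybx3*, with 0.15 before and 0.24 over the last 51. Both segments were above 0 in each line, and the steps were 0.13, 0.23 and 0.090. The 12 other lines, split in the same way, gave steps of -0.27 to 0.12 (SD 0.13, n = 12), and DKO102.4 and DKO79.9 were split at the same place as SKO163.5 with steps of the opposite sign. The split was searched anew in each alternative, so its place can differ. With members of at least 20 CPM the step was -0.062 in SKO163.5 and 0.082 in DKO548, and with least squares it was -0.062 in SKO163.5.

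The genes beside these splits show how little a single gene says about the step. *Aebp2*, a cofactor of the Polycomb complex PRC2, was at 166, 243 and 288 CPM in SKO163.5, DKO548 and DKOTu3 and at 99.7 to 252 CPM in the 12 others, with a median of 130. *Plekha5*, a pleckstrin homology domain protein, was at 44.9, 60.7 and 60.9 CPM, within the 14.3 to 70.1 CPM of the others. *Dera*, an aldolase that breaks down deoxyribose phosphate, was at 71.4, 60.9 and 65.8 CPM against 38.6 to 69.3 CPM. *Magohb*, a subunit of the exon junction complex, was at 21.1, 23.1 and 17.8 CPM against 3.81 to 20.2 CPM. Of these 4, *Aebp2* was above all 12 in DKOTu3, *Dera* in SKO163.5, and *Magohb* in SKO163.5 and DKO548.

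Single members were then compared with the 12 other lines. In SKO163.5, 34.6% of the 454 members were above each of the 12, where 5.40% of all 9707 genes of at least 5 CPM were. In DKO548 this held for 142 members (31.3%, against 7.80% of all genes) and in DKOTu3 for 78 (17.2%, against 4.08%). Members below each of the 12 numbered 3 in SKO163.5, 19 in DKO548 and 8 in DKOTu3, where 8.29%, 10% and 2.42% of all genes were. The rule used these values, so the shares are given as a description. A total of 44 members (9.69%) were above each of the 12 in all 3 lines at once, of 49 such genes in the table (0.505%), and 5 of 8920 genes on the other autosomes were. Conversely, 0 members were below each of the 12 in all 3 lines, where 15 genes (0.155%) in the table were.

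The 44 shared members lay in 13 of the 15 bins, all but bins 1 and 5, and ranged in mean level from 5.54 to 707 CPM. Relative to the median of the 12 other lines they stood at a median of 1.44-fold in SKO163.5, 1.40-fold in DKO548 and 1.29-fold in DKOTu3. These members were chosen for lying above the 12, so ratios above 1 follow from the choice and their size does not describe the chromosome. The lowest ratio was 1.11, 1.17 and 1.11, and the highest 2.32, 2.01 and 1.90. *Mat2a*, which makes the methyl donor S-adenosylmethionine and is the highest of them by mean level, was at 772, 958 and 808 CPM against 541 to 762 CPM (median 695). *Hk2*, a hexokinase that starts glycolysis, was at 110, 85.1 and 85.3 CPM against 26.0 to 78.2 CPM (median 47.2). *Pot1a*, a protein that protects telomere ends, was at 45.8, 45.1 and 60.4 CPM against 19.1 to 40.0 CPM (median 31.8). *Trnt1*, which adds the CCA end to tRNA, was at 138, 152 and 124 CPM against 66.4 to 119 CPM (median 86.1). Each of these 4 lies in a different bin (8, 9, 3 and 11). That the 3 lines did not overlap the 12 in them follows from how the 44 were chosen. *Hk2*, *Pot1a* and *Trnt1* fall outside the rule for named genes and were picked after their values were seen.

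Members were grouped by 6 lists of function, from the lineage of the cells to general upkeep. Surface proteins of T cells and other lymphocytes varied widely and did not follow the chromosome in DKO548 and DKOTu3. The 12 listed members had medians of 0.65 in SKO163.5, -0.62 in DKO548 and 0 in DKOTu3, against 0.30, 0.23 and 0.16 for all members. Above each of the 12 other lines were 2, 1 and 2 of them (16.7%, 8.33% and 16.7%). Of all members this held for 34.6%, 31.3% and 17.2%, and of all 9707 genes of at least 5 CPM for 5.40%, 7.80% and 4.08%. *Trbc2*, a constant segment of the T cell receptor beta chain, was at 843 CPM in SKO163.5, at 238 in DKO548 and at 277 in DKOTu3, against 109 to 742 CPM (median 313). *Trbc1*, the other constant segment, was at 85.5, 0.460 and 0.631 CPM, against 0.276 to 383 CPM (median 171). The 2 segments are near copies of each other, so how reads were divided between them is uncertain. *Cd8a*, a coreceptor of T cells, was at 144, 72.0 and 299 CPM against 0.230 to 290 CPM (median 25.5), above each of the 12 in DKOTu3.

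*Il12rb2*, a chain of the interleukin 12 receptor, was at 155, 269 and 158 CPM against 3.53 to 183 CPM (median 86.7), above each of the 12 in DKO548. *Cd27*, a receptor of the tumor necrosis factor family, was at 225, 37.1 and 84.6 CPM against 10.9 to 226 CPM (median 81.5). *Il17ra*, an interleukin 17 receptor chain, was at 200, 106 and 135 CPM against 83.5 to 226 CPM (median 114.8). Apart from *Trbc2* in SKO163.5, *Cd8a* in DKOTu3 and *Il12rb2* in DKO548, the values of these 6 genes in the 3 lines lay within the range of the 12.

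The 5 GIMAP members, which encode GTPases of lymphocyte survival, were at a median of 4.65 in SKO163.5, -0.24 in DKO548 and 0.40 in DKOTu3. *Gimap9* was at 151, 29.2 and 31.2 CPM, against 7.01 to 195.3 CPM (median 27.0). *Gimap4* was at 71.0, 1.21 and 3.05 CPM, against 0.255 to 177 CPM (median 1.42). *Gimap6* was at 28.8, 0 and 2.84 CPM, against 0 to 50.9 CPM (median 0.162). *Gimap1* at 64.9 CPM and *Gimap8* at 55.6 CPM in SKO163.5 were likewise within the 0.0935 to 72.1 CPM and the 0.0467 to 87.6 CPM of the 12. Apart from *Gimap9*, which was at 7.01 CPM or more, these genes were high in some lines and close to 0 in others throughout the series. Of the 5 members, 0 were above each of the 12 in any of the 3 lines. Some of the low values are within what 3 reads give, which is 0.138 to 0.618 CPM depending on the line.

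Transcription factors and chromatin regulators followed the chromosome. The 29 members had medians of 0.40, 0.26 and 0.14. Of them 19, 11 and 8 (65.5%, 37.9% and 27.6%) were above each of the 12, against 34.6%, 31.3% and 17.2% of all members. *Setd5*, a SET domain protein of chromatin, was at 357 CPM in SKO163.5, 338 in DKO548 and 313 in DKOTu3, against 139 to 303 CPM (median 243). *Luc7l2*, a splicing factor of the U1 particle, was at 447, 412 and 366 CPM against 207 to 357 CPM (median 325). *Chd4*, the remodeller of the NuRD complex, was at 1075 CPM in SKO163.5, above each of the 12, and at 818 and 841 CPM in the other two, within their 414 to 1013 CPM. *Ezh2*, the methyltransferase of PRC2, was at 511, 391 and 336 CPM against 162 to 433 CPM (median 362). *Zc3hav1*, an antiviral zinc finger protein, was at 320, 314 and 218 CPM against 141 to 252 CPM (median 220). *Cnbp*, a nucleic acid binding protein, was within the 735 to 1328 CPM of the 12 in all 3 lines, at 894, 1013 and 988 CPM. *Setd5* and *Luc7l2* were separated from the 12 in all 3 lines, *Zc3hav1* in SKO163.5 and DKO548, and *Ezh2* in SKO163.5.

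The 20 members on the list of signalling enzymes had medians of 0.37, 0.35 and 0.18. Of them 9, 10 and 3 (45%, 50% and 15%) were above each of the 12, against 34.6%, 31.3% and 17.2% of all members. By level the first of this list were *Wnk1*, *Itpr2* and *Nup210*. *Wnk1*, a kinase that controls ion transport, was at 653, 514 and 450 CPM against 155 to 502 CPM (median 391). *Itpr2*, a calcium channel of the endoplasmic reticulum, was at 733, 551 and 379 CPM against 91.8 to 614 CPM (median 320). *Nup210*, a nuclear pore protein that this list also holds, was at 462, 558 and 431 CPM against 169 to 405 CPM (median 282). *Nup210* was separated from the 12 in all 3 lines, *Wnk1* in SKO163.5 and DKO548, and *Itpr2* in SKO163.5. *Lrmp*, a membrane protein of lymphocytes, was above the 12 in DKO548 alone of the 3 lines, at 444 CPM against 147 to 435 CPM. *Arhgdib*, a GDP dissociation inhibitor of hematopoietic cells, was above them in SKO163.5, at 542 CPM against 139 to 472 CPM, and was at 158 and 236 CPM in DKO548 and DKOTu3. *Dusp11*, a phosphatase that acts on RNA, was at 291, 276 and 258 CPM against 107 to 264 CPM (median 198).

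Genes of the cell cycle, DNA replication and DNA repair also followed the chromosome. The 24 members had medians of 0.40, 0.25 and 0.19. Of them 14, 10 and 7 (58.3%, 41.7% and 29.2%) were above each of the 12, against 34.6%, 31.3% and 17.2% of all members. *Mcm2*, a subunit of the replicative helicase, was at 810 CPM in SKO163.5, 861 in DKO548 and 729 in DKOTu3, against 468 to 700.5 CPM (median 659). *Ncapd2*, a subunit of condensin, was at 618, 557 and 712 CPM against 356 to 491 CPM (median 464). *Nup205*, a nuclear pore protein placed on this list, was at 554, 553 and 500 CPM against 228 to 473 CPM (median 385). *Mad2l1*, of the spindle checkpoint, was at 209, 212 and 179 CPM against 140 to 177 CPM (median 155). In these 4 genes none of the 3 lines overlapped the 12. *Foxm1*, a transcription factor of mitosis, was above the 12 in SKO163.5, at 237 CPM against 116 to 220 CPM, and was at 215 and 183 CPM in DKO548 and DKOTu3. *Ruvbl1*, a helicase of chromatin complexes, was at 156.8 and 169 CPM in DKO548 and DKOTu3 and likewise in SKO163.5 within the 130 to 182 CPM of the 12.

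**Figure D4:**
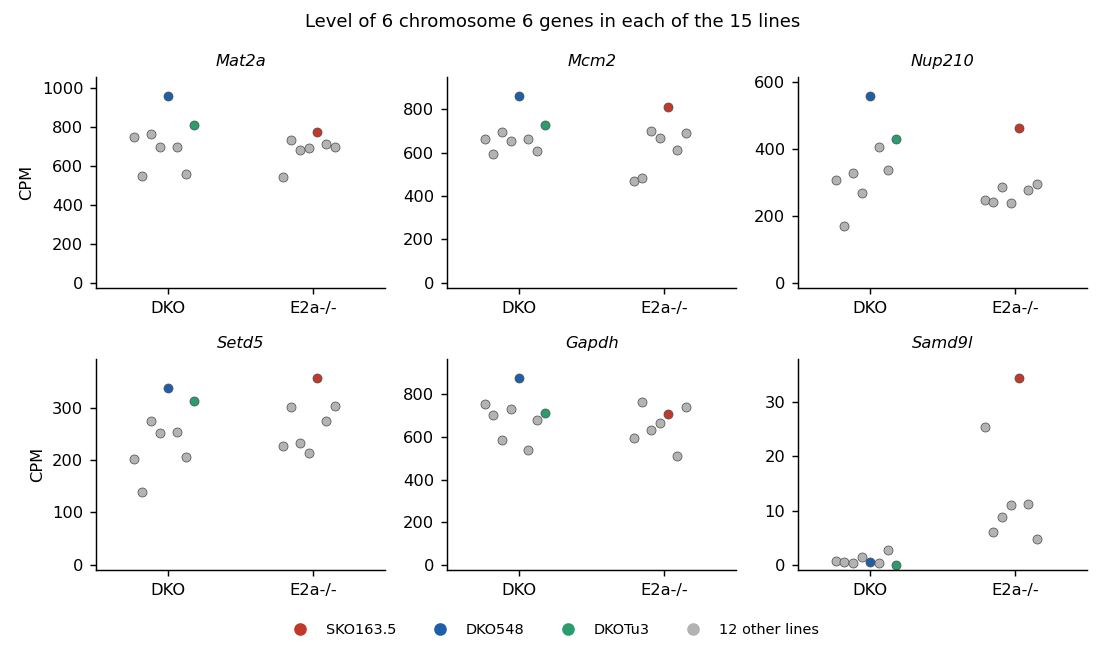
Level in CPM of 6 chromosome 6 genes in each of the 15 lines, by genotype, with SKO163.5, DKO548 and DKOTu3 coloured and the 12 other lines in grey. In Mat2a, Mcm2, Nup210 and Setd5 the coloured points lie above all grey points, in Gapdh only that of DKO548 does, at 877 CPM, and in Samd9l the DKO lines, at 2.68 CPM or less, lie below the E2a-/- lines.

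The 44 members on the list of glycolysis, translation and other housekeeping genes moved less in SKO163.5. Their medians were 0.055, 0.26 and 0.11. Of them 5, 14 and 4 (11.4%, 31.8% and 9.09%) were above each of the 12, against 34.6%, 31.3% and 17.2% of all members. *Hnrnpa2b1*, an RNA binding protein, was at 2512, 2439 and 2478 CPM against 1811 to 2448 CPM (median 2266). *Gapdh*, of glycolysis, was at 710, 877 and 711 CPM against 513 to 765 CPM (median 673). *Cct7*, a chaperonin subunit, was at 601, 855 and 698 CPM against 523 to 795 CPM (median 611). *Gars*, the glycyl-tRNA synthetase, was at 520, 798 and 501 CPM against 333 to 541 CPM (median 428). DKO548 was above each of the 12 in *Gapdh*, *Cct7* and *Gars*, while SKO163.5 was within them in these 3. *Rpl32*, a ribosomal protein, and *Pcbp1*, an RNA binding protein, were within the range of the 12 in all 3 lines.

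Gene families were also compared with their relatives on other autosomes in each line. These families were taken by symbol after the values had been seen. They are not the lists above, and the housekeeping list itself was not compared with other autosomes. The 18 members named for ribosomal proteins, mitochondrial ribosomal proteins, complex I, proteasome, chaperonin, initiation factor, small nuclear ribonucleoprotein or ATPase subunits had a median of -0.016 in SKO163.5, and 330 genes of these names on other autosomes had -0.21 there. In DKO548 the values were 0.18 and -0.044, and in DKOTu3 0.056 and -0.031. The members were above their relatives elsewhere by 0.20, 0.23 and 0.086. The median near 0 of these 18 members in SKO163.5 thus stood beside a lower level of the same families on its other autosomes. In the 12 other lines the families ranged from -0.17 to 0.69 on other autosomes, and chromosome 6 from -0.30 to 0.51.

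Chromatin and replication families lay further above their relatives. The 9 chromatin and nuclear pore members, named Kdm, Setd, Chd, Brpf, Smarc, Kmt or Nup, had medians of 0.52, 0.32 and 0.30, and the 67 relatives 0.072, -0.073 and 0.061. The 8 members named Mcm, Cdc, Ccn, Cdk, Smc, Rad or Fanc had 0.36, 0.38 and 0.30, and the 127 relatives 0, -0.028 and 0. For the 14 genes named Zfp, zinc finger proteins, the medians were 0.35, 0.045 and 0.21, against 0.062, -0.11 and 0.033 for 226 elsewhere. The set of 18 members also holds the mitochondrial ribosomal proteins and complex I genes that are plotted on their own, so the 6 families are not separate sets. In each of them the members lay above the relatives in each of the 3 lines, by 0.048 in the mitochondrial ribosomal proteins of DKOTu3 to 0.45 in the chromatin and nuclear pore genes of SKO163.5.

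**Figure D5:**
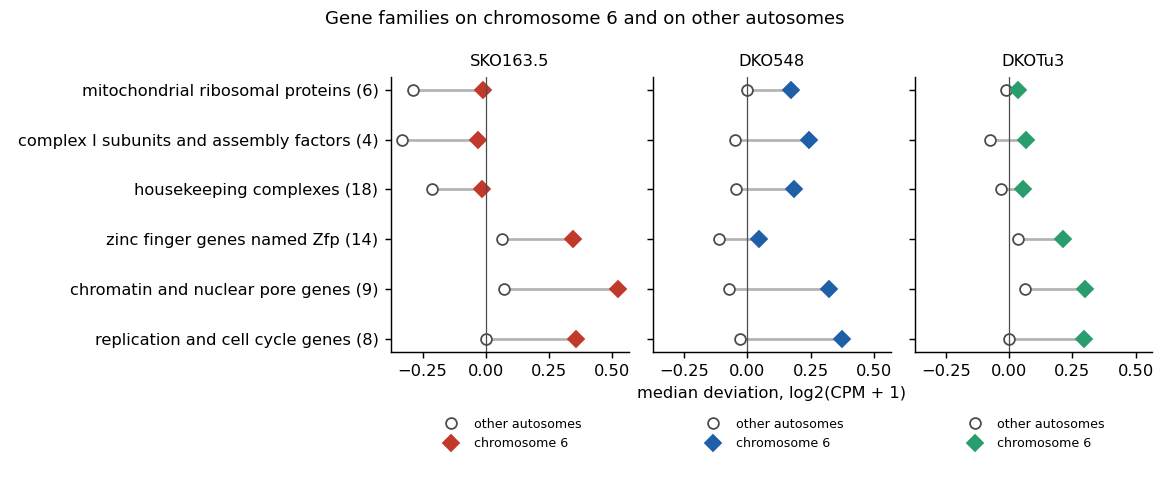
Median deviation, on the log2(CPM + 1) scale, of 6 symbol families in SKO163.5, DKO548 and DKOTu3, for members on chromosome 6 (diamonds, number of members in brackets) and for genes of the same family on the other autosomes (open circles). Each diamond lies to the right of its circle, and in SKO163.5 the first 3 families stand near 0 on chromosome 6 and between -0.33 and -0.21 elsewhere.

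By level, the median differed most between classes in DKO548. In DKO548 the median was 0 for the 109 members of 5 to 20 CPM, 0.22 for the 214 of 20 to 100 CPM and 0.30 for the 131 of at least 100 CPM. In SKO163.5 these were 0.29, 0.32 and 0.27, and in DKOTu3 0.15, 0.17 and 0.16. Genes of 5 to 20 CPM on other autosomes had a median of -0.034 in DKO548. By listed length, the short tertile of members had medians of 0.23, 0.16 and 0.076, and the long tertile 0.37, 0.30 and 0.20. On the other autosomes genes of the short lengths were at -0.10, -0.052 and -0.0045, and those of the long lengths at 0.018, 0 and 0.039. In all 3 lines, on chromosome 6 and elsewhere, the long genes stood above the short ones. The part of length and level in the shift was not tested.

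Members that vary little between the 12 other lines showed the shift most evenly. Such genes deviate little in most lines, so a narrow range is partly set by the grouping. In the tertile of least spread, 151 members, 130 were above 0 in SKO163.5, 134 in DKO548 and 121 in DKOTu3, with medians of 0.25, 0.26 and 0.16. In the tertile of greatest spread, 152 members, 101, 68 and 103 were above 0, with medians of 0.44, 0 and 0.31. The middle 50% covered 0.32, 0.28 and 0.20 in the first and 1.38, 1.42 and 0.74 in the second. Members on the plus and the minus strand had medians of 0.29 and 0.31 in SKO163.5, 0.18 and 0.25 in DKO548, and 0.16 and 0.16 in DKOTu3.

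Some members of at least 20 CPM stood far from the chromosome in a line. *Trbv19*, a T cell receptor beta variable segment, was the highest of SKO163.5 at 631 CPM and of DKO548 at 219 CPM, and was at 160 CPM in DKOTu3, against 0 to 245 CPM in the 12 (median 1.97). In SKO163.5, *Clec2i*, a lectin of the natural killer complex, was at 103 CPM against 0 to 49.5 CPM. *Tuba8*, an alpha tubulin, was at 64.8 CPM in that line, within the 0.0966 to 174 CPM of the others. The lowest there were *Lmcd1* at 0.269 CPM, *Cecr2* at 1.72 CPM and *Atn1* at 15.3 CPM, and of these *Atn1*, a transcriptional corepressor, was below each of the 12 (27.6 to 106 CPM).

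In DKO548 *Cecr2*, a bromodomain protein, was at 105 CPM against 0.363 to 60.6 CPM, and *Stk38l*, a kinase of the NDR family, at 86.5 CPM against 8.71 to 38.5 CPM. *Tspan9*, a tetraspanin, was at 0.115 CPM and *Osbpl3*, an oxysterol binding protein, at 0.288 CPM, both in the range of the 12, as was *Trbc1*. In DKOTu3 *Ybx3*, a Y-box protein, was at 310 CPM, against 0 to 268 CPM (median 0.0813), and *Scrn1*, secernin, at 159 CPM against 0 to 40.7 CPM. *Col1a2*, a collagen chain, was at 0 CPM in DKOTu3, which allows up to 0.158 CPM, against 1.84 to 947 CPM, and *Trbv5* was at 1.104 CPM against 0 to 222 CPM. *Ybx3*, *Scrn1* and *Stk38l* were thus outside the 12 lines in 1 of the 3 lines each, and *Cecr2* was above them in DKO548 and, at 97.2 CPM, in DKOTu3, and low in SKO163.5.

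The question the series was made for is how DKO lines differ from *E2a*-/- lines. Few genes were called in this comparison by limma, on chromosome 6 as in the whole table. With limma on log2(CPM + 1), adjusted by Benjamini-Hochberg over all 12545 genes, 1 of 454 members had an adjusted p under 0.01, and it was lower in DKO lines. Of all genes, 0.0239% were called lower and 0.0239% higher, and 0 members were called higher. At an unadjusted p under 0.05 from limma there were 43 of 454 members and 1275 of 12545 genes (10.2%). The median log2 difference, DKO minus *E2a*-/-, was -0.011 over members and -0.019 over all genes. The raised lines are on both sides of this comparison, 2 DKO and 1 *E2a*-/-.

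The member called was *Samd9l* (ENSMUSG00000047735, listed on chromosome 6 from 3322257 to 3349571), an interferon-inducible gene that restrains growth and viral infection. It was at 0.0526 to 2.68 CPM in DKO lines (median 0.511, n = 8) and at 4.84 to 34.5 CPM in *E2a*-/- lines (median 11.04, n = 7). The groups did not overlap, as in 0.175% of all genes. The log2 difference was -2.94 (SE 0.38, adjusted p = 0.00383 from limma). SKO163.5 had the highest value of the series, 34.5 CPM, and DKOTu3 the lowest, a value under what 3 reads give. Without SKO163.5, DKO548 and DKOTu3 the log2 difference was -2.57 and the adjusted p 0.0271 from limma.

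The call also depended on single lines and on the tool. Leaving out each line in turn gave adjusted p values of 0.00173 to 0.0131 from limma, and the call was lost without DKO102.4, DKO170.2, DKO192.3, DKO713, DKOTu3, SKO137.1, SKO156.6 or SKO186.5. With edgeR's quasi-likelihood test on the recovered reads 0 members were called (0.00797% of all genes), with an adjusted p of 0.0369 for *Samd9l*. At an unadjusted p under 0.05 from that test there were 52 of 454 members and 1359 of 12545 genes. The likelihood ratio test of edgeR called 3 members, *Cacna1c*, *Samd9l* and *Tuba8*, all lower in DKO lines (0.351% of all genes lower, 0.319% higher). DESeq2 called 9, of which 7 were lower (0.757% of all genes) and 2 higher (0.654%). Over the alternatives the adjusted p of *Samd9l* ranged from 2.76e-09 to 0.0369.

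No member was called higher in DKO lines by limma as fitted here, and the 3 with the lowest p were *Pon3*, *Tulp3* and *Wnt5b*. *Pon3*, a paraoxonase, was at 6.57 to 19.1 CPM in DKO lines (median 9.88) and at 2.42 to 9.60 CPM in *E2a*-/- lines (median 3.37), with overlap through the library labelled SKO132. Its log2 difference was 1.24 (SE 0.29, adjusted p = 0.0980 from limma). *Tulp3*, which carries receptors into cilia, was at 49.5 to 94.4 CPM (median 86.2) and at 33.4 to 62.7 CPM (median 50.6), with a difference of 0.64 (SE 0.16, adjusted p = 0.137 from limma). *Wnt5b*, a WNT ligand, was at 22.5 to 56.1 CPM (median 38.7) and at 5.90 to 37.4 CPM (median 12.4), with a difference of 1.34 (SE 0.40, adjusted p = 0.228 from limma). The groups overlapped in all 3, and limma with array weights called *Pon3* (adjusted p = 0.00734). Over the alternatives their adjusted p ranged from 0.00620 to 0.349, from 0.00731 to 0.269 and from 0.142 to 0.474.

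*Cacna1c*, the calcium channel gene whose promoter is shown above, was chosen after its values were seen, as the second lowest p. It was at 0 to 2.84 CPM in DKO lines (median 1.01) and at 2.69 to 99.8 CPM in *E2a*-/- lines (median 31.3). DKOTu3, at 2.84 CPM, was above SKO115.2, at 2.69 CPM, so the groups overlapped by that pair. The log2 difference was -3.97 (SE 0.63, adjusted p = 0.0189 from limma, 8.52e-11 to 0.0598 over the alternatives). The 3 raised lines were at 9.03 CPM in SKO163.5, 0.345 in DKO548 and 2.84 in DKOTu3, so this gene did not follow the chromosome in DKO548.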

How the data were processed

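RNA of 15 lines was measured by RNA-sequencing, 1 library each. The authors trimmed reads with Trimmomatic (version 0.33), aligned them to mm10 with TopHat (version 2.1.0) and counted them on genes with HTSeq (version 0.6.1). They report a normalization with edgeR, and the CPM they deposited are reads scaled to the library total. Dividing by the lowest value above 0 of a line gave whole reads for 100% of values, within 0.01 of a whole number. Coordinates are as listed: of 441 members found in RefSeq GRCm38.p6, 0 started within 1 bp of the listed start, though 441 of 441 were on chromosome 6.

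Deviations, bins and splits were computed with numpy (version 2.4.6) under Python (version 3.11.15). The table holds CPM values before any further scaling, which were used as log2(CPM + 1), a scale that understates changes of low genes. Genotypes were compared over all 12545 genes with limma (version 3.58.1, R version 4.3.3) with a variance trend, 2-sided, and on whole reads with edgeR (version 4.0.16) and DESeq2 (version 1.42.0). All were run on simulated data with planted changes, which checks the code and not how the tests behave on these lines. Chromosome, lines, members and gene lists were chosen with earlier results of these data known. Named genes are up to 6 per list by mean CPM, the 3 highest and 3 lowest deviations per line among members of at least 20 CPM, those beside a split, and those called between genotypes, or else the 3 lowest p of a direction. Alternatives were other pseudocounts, limits, scalings, references, bin widths and tools, and each line left out. Results for some genes that were examined are left out of this text. Counting error only is covered by what 3 reads give.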

Additional observations from a re-analysis of the deposited data

Results flagged for a closer look

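SKO163.5 stood apart from the 6 other *E2a*-/- lines in the chromosome 6 median, at 0.30 against -0.046 to 0.0057, because its gap to the nearest line took most of the range of the group. The share of CPM on members was 5.62% in the same line, against 4.19% to 4.54%. Of the bins, 4 stood apart in this line in the same sense. Bin 4 was at 0.33 against -0.13 to 0.0071, and bin 10 at 0.45 against -0.078 to 0.064. Bin 12 was at 0.28 against -0.084 to 0.00017, and bin 13 at 0.27 against -0.16 to 0. In all, 40 sets of lines were examined in this way. Chance marks about 1 in 20 such sets, but the 6 found here overlap and belong to 1 line, which was chosen for its shift, so their number is not read against chance. No line stood apart among the 8 DKO lines, where DKO548 and DKOTu3 were both raised and each is the nearest neighbour of the other in the chromosome median.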

How the results depend on the processing

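No paired analysis was possible because each line is its own sample and the line names of the 2 genotypes share no number. The chromosome 6 median stayed above 0 under all 27 alternatives in each of the 3 lines. It moved by more than the spread of the 12 other lines with these 12 lines as reference (0.34 in SKO163.5, 0.28 in DKO548, 0.22 in DKOTu3) and as a mean over members (0.42, 0.021 and 0.22). In DKO548 it also moved with a limit of 1 CPM (0.16), without a limit (0.13) and with upper-quartile scaling (0.18), and in DKOTu3 with a reference of its own genotype (0.21) or with no line in common (0.27). Leaving a line out of the reference gave 0.28 to 0.31, 0.20 to 0.24 and 0.15 to 0.18. The share of raised bins stayed within 1.5 times under 6 alternatives, at 84.2% to 100%, 78.9% to 92.3% and 57.9% to 100%. With references that share no line, bins were compared only with the lines of the reference, 6 for SKO163.5 and 3 each for DKO548 and DKOTu3. The 100% of DKOTu3 came from that setting, and its highest share in the others was 84.6%. With the split searched anew, at a place that can differ, the step in SKO163.5 was of the opposite sign with least squares (-0.062). It was also so with members of at least 20 CPM (-0.062), where the step in DKO548 was 0.082. The cause was not tested.

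Of 454 members, 1 was called between genotypes by limma, 3 with array weights and 2 at an adjusted p under 0.05. Among all 12545 genes these settings called 6, 29 and 19. The likelihood ratio test of edgeR called 3 members, DESeq2 9 and edgeR's quasi-likelihood test 0, where 84, 177 and 1 of all genes were called. Without SKO163.5, DKO548 and DKOTu3 together 0 members were called (4 of all genes). With SKO156.6 and SKO186.5, the libraries most alike, averaged (chosen after seeing the data), 0 were called (3 of all genes). With 1 line left out 0 to 2 were called (3 to 17 of all genes). The log2 differences of *Samd9l*, *Cacna1c*, *Pon3*, *Tulp3* and *Wnt5b* kept their sign under every alternative run. Low genes are least certain in DKO79.9, where 3 reads are worth 0.618 CPM.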
